A study of Mus musculus with 43 samples.

Results

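Spermatogonia sorted from mouse testes at postnatal day 7 (P7) were compared between Prmt1-dKO and WT males by Smart-seq2, in 4 of the 43 samples of the series, 2 per genotype, chosen by their titles alone. Both genotypes were C57BL/6J and carried the Ddx4-GFP-CreERT2 knock-in, which places EGFP and a tamoxifen-dependent Cre under the germline Ddx4 promoter, and the labels state tamoxifen on 3 days. Prmt1-dKO males were Prmt1 lox/lox with a pair of exons floxed. The methods name Prmt1 +/lox males carrying the same Cre as the sorted controls, which the labels call WT, so the controls carried 1 floxed allele. Cells were gated on EGFP, and each library was amplified from the RNA of a small number of sorted cells, with no molecular identifiers. The study calls the libraries of a genotype biological duplicates. The sources used here do not say how many animals a library holds, and p-values measure the spread between these libraries. Whole testes of the same age (bulk RNA-seq, 3 WT and 3 Prmt1-dKO) served only as a second readout.

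PRMT1 is the main enzyme of the cell that places asymmetric dimethylarginine on proteins, among them histone H4 at arginine 3 and many RNA-binding proteins. Spermatogonia are the mitotic germ cells of the testis. A few act as stem cells that respond to the growth factor GDNF through the receptor RET and its co-receptor GFRA1, while most become progenitors, then KIT-positive differentiating cells that retinoic acid commits to meiosis. At this age the first wave of spermatogenesis consists of spermatogonia, and differentiating ones already transcribe many meiotic genes.

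The 4 libraries held between 15610392 and 18547103 counts, and between 10390 and 10799 genes reached 100 counts. More genes had at least 1 count in Prmt1-dKO (21404 and 20194) than in WT (17106 and 15587). The WT pair stood apart in spread. Among genes with at least 100 counts in each library, 20.2% lay more than 2-fold apart between the WT replicates and 1.03% between the Prmt1-dKO replicates, and Pearson's r of log2 CPM (counts scaled to the library total, with 1 added) across these genes was 0.858 and 0.975. Between genotypes r was 0.826 to 0.857, so the WT replicates differed from each other about as much as from Prmt1-dKO libraries. WT replicate 2 alone lacked 361 genes (at most 10 counts, with at least 100 in each other library), WT replicate 1 lacked 119, and the Prmt1-dKO replicates lacked 1 and 5. The gene annotated as ribosomal RNA, CT010467.1, held 839292 and 523082 counts in WT and 1686573 and 1667914 in Prmt1-dKO, and leaving it out moved the calls given below by 1 gene.

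Prmt1 itself (ENSMUSG00000109324.2, chr7:44975989-44986568 of GRCm38) had 4182 and 2852 counts in WT against 1746 and 1307 in Prmt1-dKO. Both Prmt1-dKO libraries lay below both WT libraries, with a fitted log2 fold change of -0.87 (SE 0.25), but the gene was not called (FDR = 0.0793 from edgeR's quasi-likelihood test). It was called without WT replicate 2 (log2 fold change -1.11) and with library totals. Because reads from exons outside the floxed pair still count, the gene total is only a partial check of the labels. The mean length of its transcripts as RSEM weighted them was 991 and 985 bases in WT and 859 and 858 in Prmt1-dKO, a ratio of 0.869 (unadjusted p = 0.00123 from limma, FDR = 0.204).

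The sorted cells carried germ cell markers in every library. Summed over 14 annotated genes of germ cell identity, CPM of library totals came to 3443 and 3680 in WT and 2873 and 2880 in Prmt1-dKO, and all 14 were detected in each library. Ddx4, whose promoter drives the sorting signal, had 3513 and 4931 against 3483 and 3413 counts and did not pass the test (log2 fold change 0.04, SE 0.21, FDR = 0.918), and its small difference changed sign with library totals (-0.12). Dazl, a translational regulator of germ cells, had 8242 and 8940 against 8033 and 7906 counts. Of this list only Tex101, a germ cell surface antigen, was called, with 20510 and 20776 against 8365 and 7111 counts (log2 fold change -1.08, FDR = 0.0107). Of all genes with at least 100 counts in each library, 2.34% were called lower. In the list 6 genes were higher and 2 lower in both Prmt1-dKO libraries (28.0% and 28.1% of such genes). Germ cell markers thus had the highest sum of the marker lists in every library. Since sorted cells were pooled for each library, fewer cells of a type and less RNA per cell cannot be told apart.

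Markers of other testicular cells summed to less than those of germ cells, and Sertoli markers were the most abundant of them. Sertoli markers summed to 465 and 478 CPM in WT and 701 and 944 in Prmt1-dKO, with 6 of 11 members of at least 100 counts in each library higher in both Prmt1-dKO libraries (28.0% of all such genes) and Clu and Cst12 called higher (1.93% of all). The defining Sox9 (547 and 570 against 707 and 981 counts) and Wt1 (593 and 324 against 481 and 760) were not called. Cldn11 (1469 and 538 against 645 and 816) overlapped between genotypes, and Rhox5 went the other way (92 and 87 against 17 and 45). The 12 macrophage markers summed to 0.0539 and 0 CPM in WT and 79.5 and 84.0 in Prmt1-dKO, where 10 and 11 of them were detected, although Adgre1, a defining one, was at 0 throughout. Fibroblast markers summed to 43.0 and 8.15 against 110 and 98.7 CPM, and red blood cell markers to 8.68 and 10.7 against 70.6 and 30.04. Leydig markers summed to 53.8 and 51.0 against 61.8 and 54.2 CPM. Of these, Cyp17a1, Cyp11a1, Hsd3b6 and Lhcgr were at 0 in all 4 libraries, and Hsd3b1 (25 and 72 counts) and Insl3 (5 and 8) were found in Prmt1-dKO only. Peritubular myoid markers (22.2 and 74.9 against 42.7 and 44.2 CPM) overlapped between genotypes. Endothelial markers summed to 80.9 and 88.9 against 58.2 and 66.9 CPM, mostly from Egfl7 (1302 and 1422 against 800 and 859 counts), while the defining Pecam1 (22 and 2 counts) and Cdh5 (12 and 31) and also Kdr, Tek and Esam were at 0 in both WT libraries and present in both Prmt1-dKO libraries, and Tie1 in 1 of them. The part of these other cells in the results that follow was not tested.

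**Figure D1:**
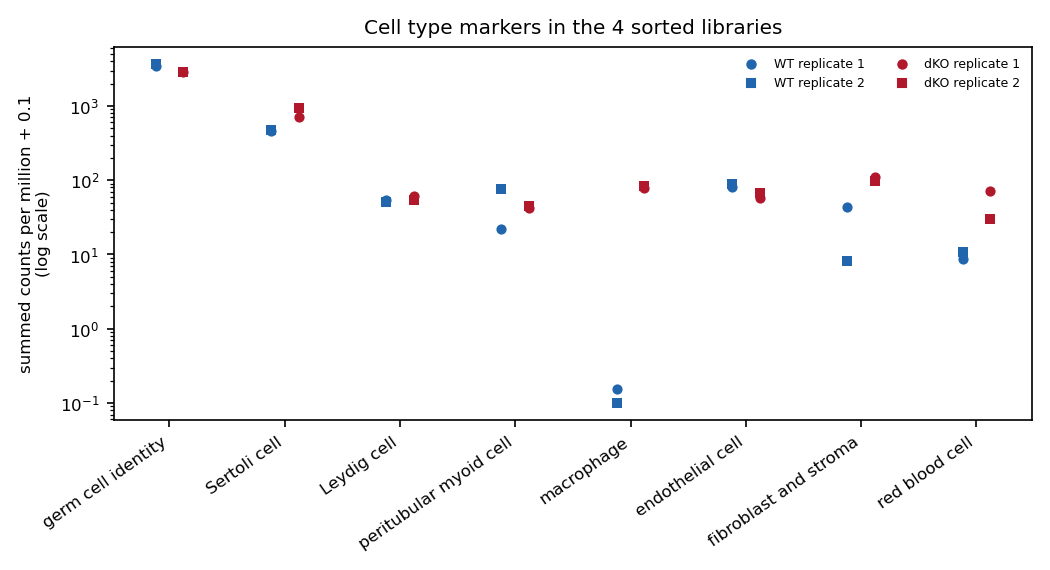
Summed CPM of library totals, with 0.1 added, on a log axis for 8 lists of cell type markers, each point 1 of the 4 sorted libraries (2 WT, 2 Prmt1-dKO). Germ cell markers stand above all other lists in every library, and macrophage markers are at 0.0539 and 0 in WT but at 79.5 and 84.0 in Prmt1-dKO.

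Tested over all 16443 genes with enough counts, edgeR called 0 genes in either direction. Its smallest FDR was 0.0774. Before adjustment, a p below 0.05 with a 2-fold difference was reached by 2267 higher and 678 lower genes. DESeq2 on the same genes called 2521 higher and 977 lower, and limma-voom 1546 and 150. The analysis therefore turned to the 8547 genes with at least 100 counts in each library, fitted on their own, for which the biological coefficient of variation was 0.293 against 0.767 over all genes. This minimum leaves out genes that are nearly absent from a genotype, which are described separately. Of 10861 genes with a mean of at least 100 counts, 2314 were left out, 1402 of them for a WT library only and 485 for a Prmt1-dKO library only.

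Among the well-counted genes, 165 were higher (1.93%) and 200 lower (2.34%) in Prmt1-dKO spermatogonia at an FDR below 0.05 and at least 2-fold. The genotypes did not overlap for 2394 genes with higher (28.0%) and 2402 genes with lower (28.1%) CPM in both Prmt1-dKO libraries, and the median log2 fold change was -0.02. DESeq2 on the same genes called 374 higher and 417 lower, among them 162 and 200 of edgeR's calls. Scaled by library totals alone, the median moved to -0.19 and the calls to 106 higher and 365 lower, so the share of higher genes among the calls went from 45.2% to 22.5%. The counts of calls rested on single libraries. Without WT replicate 1 there were 1109 higher and 806 lower genes, without WT replicate 2 886 and 729, without Prmt1-dKO replicate 1 41 and 44, and without Prmt1-dKO replicate 2 53 and 44, the lone library being assumed to vary like the other genotype's pair. In all of these fits the 165 and 200 genes kept their direction, but they were chosen for a difference of at least 2-fold in these same libraries. Their direction is therefore no measure of stability. A gene list that included genes low in some libraries (a mean of at least 100 counts) gave 0 calls, with a smallest FDR of 0.0892.

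**Figure D2:**
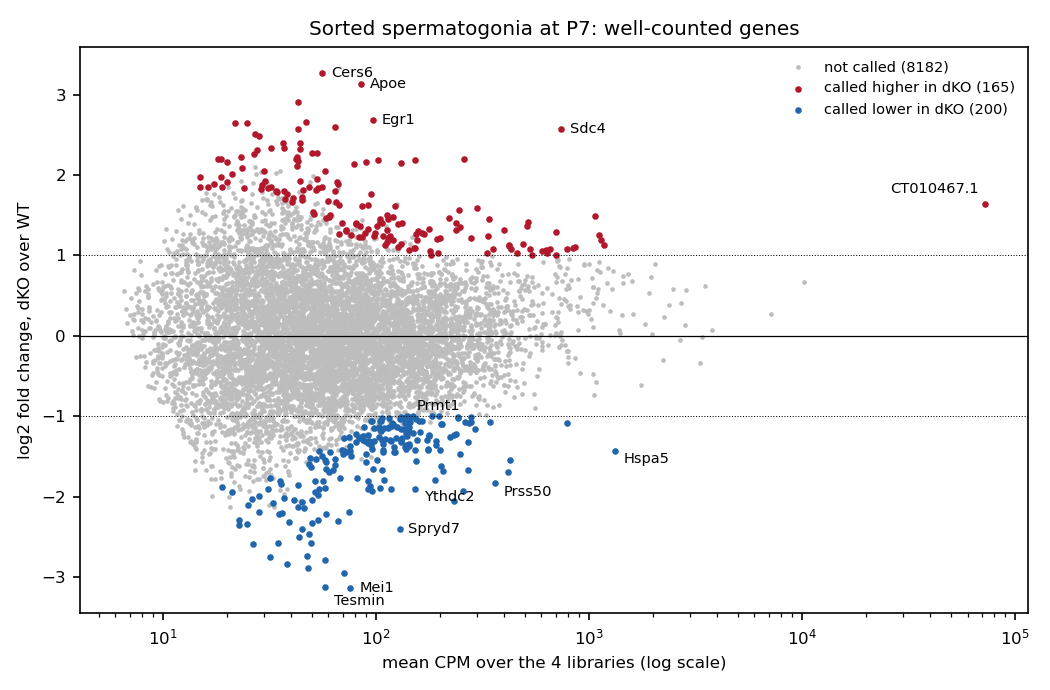
Fold change (log2, Prmt1-dKO over WT) against mean CPM on a log axis for 8547 well-counted genes, with 165 called higher in red, 200 called lower in blue and dotted lines at 2-fold. Calls are found on both sides of 0 and across the range of expression, and Sdc4 and Hspa5 are examples at high levels.

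Of the 15 named genes with the largest increases, 4 stayed called with any single library left out and are described first. Cers6, a ceramide synthase (ENSMUSG00000027035.10, chr2:68861441-69114282), had 194 and 214 counts in WT and 1487 and 1623 in Prmt1-dKO, which is 10.6 ± 0.821 against 102 ± 8.29 CPM (SD, n = 2 each) and a log2 fold change of 3.27 (SE 0.36, FDR = 0.00603). Apoe, the apolipoprotein that carries lipids between cells (ENSMUSG00000002985.16, chr7:19696109-19699188), rose from 410 and 265 to 2549 and 2147 counts (log2 fold change 3.14, SE 0.33). Sdc4, a heparan sulphate proteoglycan of the cell surface (ENSMUSG00000017009.3, chr2:164424247-164443887), had the smallest FDR of all, 0.000627, with 4200 and 4049 against 18754 and 20016 counts (log2 fold change 2.57, SE 0.16). The rule that chose these genes required replicates within 2-fold of each other and no overlap between genotypes. Egr1, a zinc finger factor induced within minutes by growth factors and by stress, had 621 and 389 against 2380 and 2734 counts (log2 fold change 2.69, FDR = 0.00696). Macrophages also express Apoe, and their markers, given above, moved in the same direction.

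Among the other 11 genes, Col1a1, the collagen chain of connective tissue and here also a fibroblast marker, had 247 and 145 against 1310 and 1016 counts. It is itself part of the fibroblast sum given above. Of the other members, Col1a2, Dcn and Pdgfrb were at 0 in WT and present in both Prmt1-dKO libraries. Col3a1 (400 and 0 against 138 and 134 counts) and Pdgfra (149 and 0 against 123 and 98) overlapped between genotypes. Gnas, the stimulatory G protein subunit, had 294 and 188 against 1090 and 1174 counts. Tfe3, a transcription factor of lysosomal genes, had 238 and 214 against 1012 and 877, and Rragd, a GTPase that brings mTORC1 to lysosomes, 342 and 203 against 1135 and 1132. Ddah1, which hydrolyses free asymmetric dimethylarginine, the product of PRMT1 substrates after protein breakdown, had 160 and 251 against 716 and 920 counts (log2 fold change 2.34, SE 0.48, FDR = 0.0319). Aldh2, an aldehyde dehydrogenase of mitochondria, Pcid2, a subunit of an mRNA export complex, Rnf25, a ubiquitin ligase, and Susd4, Cnpy4 and Dcaf12 completed the 15, with log2 fold changes of 2.27 to 2.65. In all 15 both Prmt1-dKO libraries exceeded both WT libraries, as the rule that chose them required. All but the 4 genes above lost their call without Prmt1-dKO replicate 1 or 2, at an FDR of up to 0.0979 (Susd4) to 0.360 (Ddah1), and Col1a1 only without replicate 1 (0.101).

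Several of the genes with the largest decreases act in meiosis. Mei1, required for meiotic double-strand breaks (ENSMUSG00000068117.10, chr15:82069996-82126814), fell from 3473 and 1788 counts to 224 and 248, a log2 fold change of -3.13 (SE 0.39, FDR = 0.00776). Tesmin, a germ cell protein with cysteine-rich domains (ENSMUSG00000024905.15, chr19:3388857-3407823), fell from 1840 and 2167 to 155 and 207 (log2 fold change -3.12, SE 0.38). Terb1, which ties meiotic telomeres to the nuclear envelope, had 882 and 1243 against 146 and 105 counts. Spdya, an activator of CDK2 at those telomeres, had 783 and 974 against 129 and 102, and Ccnb3, a cyclin of meiotic cells, 1138 and 1152 against 116 and 185. Each of these genes kept at least 100 counts in both Prmt1-dKO libraries and none overlapped between genotypes, as the rules that chose them required.

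Other genes of this group have roles outside meiosis. Rps6ka5, a kinase that phosphorylates histone H3 on signalling, had 1728 and 2148 against 206 and 236 counts (log2 fold change -2.79). Gal3st1, which sulphates the germ cell lipid seminolipid, had 1344 and 1236 against 143 and 142. Spryd7 (ENSMUSG00000021930.14, chr14:61531993-61556886) was the most counted, with 4744 and 3633 against 678 and 578 (log2 fold change -2.40, SE 0.24, FDR = 0.00593). Trim52, Ncoa5, Cep112, Pdik1l, Ppp4r4, 4930432K21Rik and BC049762 made up the rest, between -2.89 and -2.35. Mei1, Tesmin, Trim52, Rps6ka5 and Spryd7 stayed called with each library left out, while the other 10 lost the call without a Prmt1-dKO replicate, at an FDR of up to 0.0697 (Cep112, without replicate 1 only) to 0.430 (Ppp4r4). Chosen after their values were seen, the serine protease gene Prss50 (10647 and 11147 against 2634 and 2205 counts, log2 fold change -1.84), M1ap, a meiosis gene (12137 and 12420 against 3315 and 2718, -1.69), and Rn7sk, the 7SK RNA that restrains transcript elongation (2621 and 2216 against 256 and 240, -2.95), were lower as well. 7SK RNA has no poly(A) tail, and its pseudogenes make its count uncertain.

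**Figure D3:**
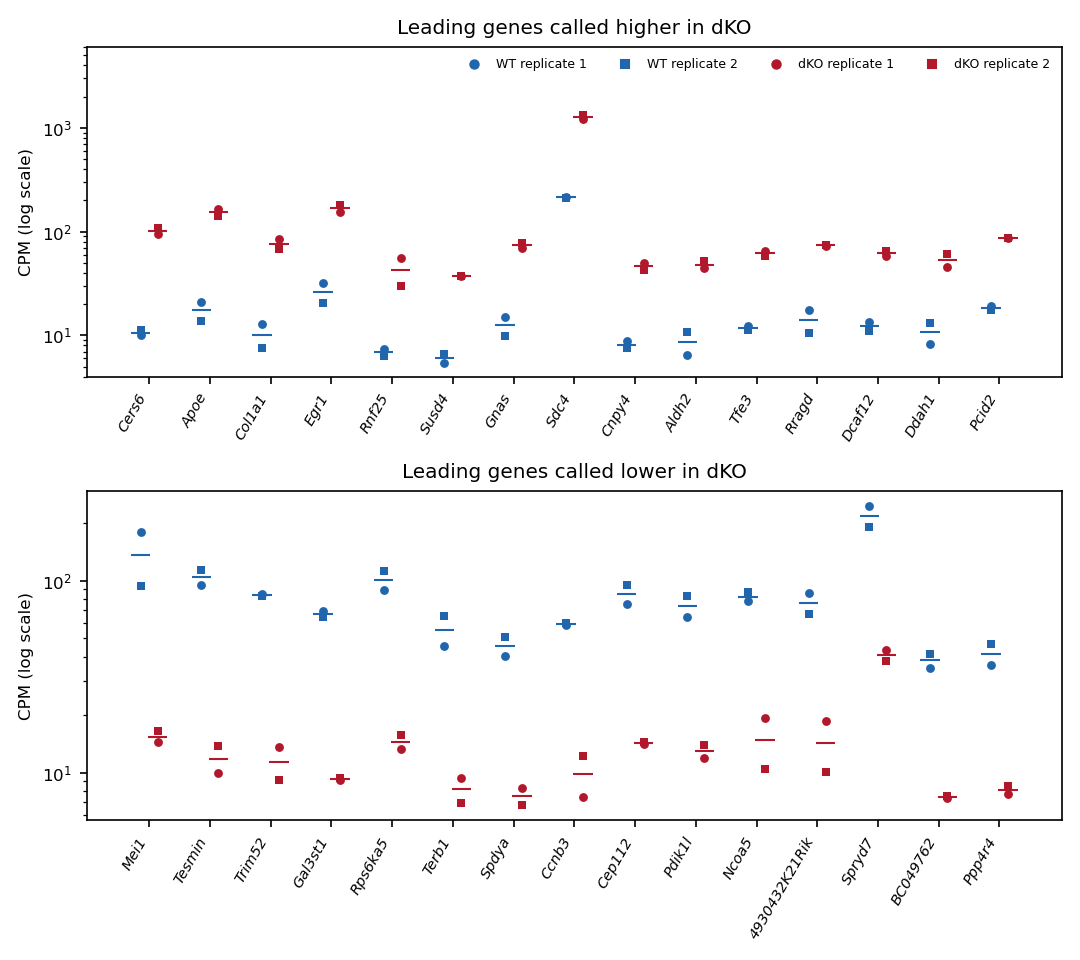
CPM on a log axis in each of the 4 libraries for the 15 genes with the largest increase and the 15 with the largest decrease that were called (circles for replicate 1, squares for replicate 2, bars for the mean). In all 30 genes the Prmt1-dKO libraries lie wholly to one side of the WT libraries, as the rule that chose them required.

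Genes of stem and progenitor spermatogonia lay higher in Prmt1-dKO. All 12 well-counted members of these lists had both Prmt1-dKO libraries above both WT libraries, where 28.0% of all well-counted genes did, and 3 passed the test (1.93% of all). Ret, the GDNF receptor (ENSMUSG00000030110.13, chr6:118151745-118197718), had 448 and 419 counts in WT and 1763 and 1096 in Prmt1-dKO (log2 fold change 2.05, SE 0.36, FDR = 0.0218). Sall4, a zinc finger factor of undifferentiated spermatogonia (ENSMUSG00000027547.17, chr2:168748332-168767943), had 1209 and 1262 against 2732 and 2687 (log2 fold change 1.47, FDR = 0.0155). Egr4, a zinc finger factor of progenitors (ENSMUSG00000071341.4, chr6:85511121-85513589), had 780 and 656 against 2839 and 2326 (log2 fold change 2.18, SE 0.26, FDR = 0.00696). For each the genotypes did not overlap, and the spread was widest between the Prmt1-dKO replicates of Ret. Ret and Sall4 lost their call without Prmt1-dKO replicate 1 or 2 (FDR up to 0.450 and 0.146), and Egr4 kept it throughout.

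The other 9 members were not called. Gfra1, the co-receptor of RET, had 273 and 498 against 845 and 739 counts (log2 fold change 1.37, FDR = 0.110), and Foxo1, a factor of stem cell maintenance, 1768 and 2056 against 2362 and 2265 (0.61). Nanos3, an RNA-binding protein of progenitors, had 172 and 135 against 409 and 416 (1.77, FDR = 0.0510), Sox3 193 and 140 against 323 and 315, and Lin28a, an RNA-binding protein that blocks let-7, 1664 and 744 against 1938 and 1990. Etv5, Pou3f1, Tcl1 and Sohlh1 had log2 fold changes of 0.76, 1.003, 1.22 and 0.67. The median over the 7 stem cell genes was 1.22 (0.99 to 1.52 over 8 other settings) and over the 5 progenitor genes 1.28 (1.08 to 1.73), against -0.02 for all well-counted genes. Most members of these lists were too low to be in the fit.

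Taking every member by its counts, 14 of 20 stem cell genes and 10 of 12 progenitor genes were higher in both Prmt1-dKO libraries and 0 were lower in both, where 29.4% and 18.5% of the 24498 genes with a count were. Of the stem cell list 13 members fell under 100 counts somewhere, 6 of them in WT libraries only. Nanos2, which keeps male germ cells from meiosis, had 2 and 0 counts in WT and 103 and 159 in Prmt1-dKO, a ratio of 146 by library totals (95% counting interval 40.0 to 1213). Neurog3, a progenitor factor, had 12 and 0 against 245 and 364. Bcl6b, a GDNF-responsive repressor, had 0 and 0 against 180 and 256, at least 162-fold higher. In these genes WT replicate 2 held none. In whole testes Bcl6b had 17.4 CPM in WT and 21.4 in Prmt1-dKO, and Nanos2 1.80 and 1.22. Zbtb16 (1107 and 29 against 1875 and 1648) and Id4 (22 and 287 against 459 and 355) differed as widely between the WT replicates as between genotypes. Lhx1, Pax7, Cdh1 and Tbx3 overlapped between genotypes or had higher WT counts in replicate 1 (206, 93, 221 and 165 counts). Counting intervals cover counting error only, and reads amplified by PCR are not independent molecules.

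Genes of differentiating spermatogonia showed no call among 12 well-counted of 12 listed. Kit, the receptor that marks this stage, had 4336 and 3861 against 3455 and 3905 counts (log2 fold change 0.19, SE 0.19), and Stra8, the retinoic acid target that starts meiotic entry, 1986 and 1227 against 1343 and 1214 (0.01, SE 0.31). In both genes the counts of the genotypes overlapped. Esx1, an X-linked homeobox gene, had 4210 and 4153 against 1934 and 1820 (log2 fold change -0.82, FDR = 0.0445, under 2-fold), and Prdm9, which places meiotic recombination sites, 946 and 601 against 247 and 175 (-1.54, FDR = 0.0889). In this list 7 members lay below WT in both libraries and 2 above (28.1% and 28.0% of all well-counted genes), with a median of -0.22.

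Meiotic genes lay lower in Prmt1-dKO across lists for entry, breaks, pairing, cohesion and repair. Of the 87 well-counted genes in the 6 such lists, 52 had both Prmt1-dKO libraries below both WT libraries and 10 above, where 28.1% and 28.0% of all well-counted genes did. The test called 10 lower (2.34% of all genes) and 0 higher, and the median log2 fold change was -0.49. Of meiotic entry, 3 of 11 well-counted genes were called. Ythdc2, an RNA helicase that moves germ cells from mitosis to meiosis, fell from 5046 and 4274 to 1136 and 834 counts (log2 fold change -1.91, SE 0.23, FDR = 0.00696). Meioc, its partner, had 4128 and 2737 against 1314 and 1383 (-1.004, FDR = 0.0546), and Gm4969, which drives the meiotic programme with STRA8 and is also called Meiosin, had 2386 and 1680 against 564 and 380 (-1.77, FDR = 0.0285). Rbm46, a further RNA-binding partner, had 3497 and 4285 against 1809 and 1691 (-0.82, FDR = 0.0560). Of these genes Ythdc2 and Gm4969 passed the test.

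Among genes of double-strand breaks, Mei1 and Ankrd31 (3433 and 4630 against 1464 and 1301, log2 fold change -1.21), which recruits the break machinery, were called of 9 (2.34% of all well-counted genes called lower). Of these 9 genes 7 lay below and 0 above (28.1% and 28.0% of all). Rec114 (1279 and 1394 against 1019 and 897) and Trip13 (1689 and 2178 against 1925 and 1469) were not called. Of 17 cohesin genes, 11 lay below and 3 above (28.1% and 28.0% of all), and 1 was called lower (2.34% of all). This was Smc1b, the meiosis-specific SMC subunit (ENSMUSG00000022432.7, chr15:85064689-85131964), at 11446 and 13028 against 3324 and 3315 counts, 637 ± 63.3 against 217 ± 3.88 CPM (SD, n = 2 each) and a log2 fold change of -1.54 (SE 0.17). Its mitotic counterpart Smc1a had 1376 and 1962 against 929 and 783 (-0.63, FDR = 0.253), and Smc3, shared by both complexes, 6538 and 7466 against 5189 and 4288 (-0.23). Stag2 and Rad21, mitotic subunits, had fitted values of 1.55 and 0.96 and were not called.

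Of 32 genes of homologous recombination, 3 were lower (2.34% of all) and 0 higher. Brca2, a tumour suppressor that acts in this repair (ENSMUSG00000041147.10, chr5:150522630-150570329), had 7482 counts in WT replicate 1 and 6624 in replicate 2, against 2184 and 1844 (log2 fold change -1.47, FDR = 0.00742). Hsf2bp, a meiotic partner of BRCA2, had 3581 and 2710 against 856 and 711 (-1.67), and Atr, the replication stress kinase, 7923 and 4896 against 1981 and 2355 (-1.22). The meiotic recombinase gene Dmc1 (617 and 1291 against 590 and 524) was not called. In the crossover list 0 of 15 were called, 9 were below and 4 above (28.1% and 28.0% of all), among them Rnf212, with 122 and 115 against 312 and 262 counts (1.61, FDR = 0.0547), and Hfm1, with 2115 and 644 against 239 and 282 (-2.05, FDR = 0.0675). Across these lists, Mei1, Ythdc2, Smc1b and Brca2 kept their call with each library left out. Gm4969, Hormad2 and Syce3 lost it without Prmt1-dKO replicate 1 or 2 (FDR up to 0.281, 0.454 and 0.506), Hsf2bp without replicate 2 (0.0664), Atr without WT replicate 1 or Prmt1-dKO replicate 1 (0.120), and Ankrd31 without WT replicate 2 or either Prmt1-dKO replicate (0.145).

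The synaptonemal complex, the protein zipper that joins homologous chromosomes, separated the genotypes in nearly all of its measured genes. In 10 of its 11 well-counted genes both Prmt1-dKO libraries lay below both WT libraries (28.1% of all), and the median log2 fold change was -0.74 (-0.91 to -0.59 over 8 other settings). Hormad2 (798 and 1495 against 207 and 242 counts, -2.01) and Syce3 (2008 and 1860 against 677 and 590, -1.27) were called (2.34% of all called lower). The transverse filament gene Sycp1 had 5068 and 4419 against 2534 and 2285 (-0.64), the central element gene Syce2 7717 and 9095 against 3681 and 3050 (-0.99, FDR = 0.0234, just under 2-fold), and the axis genes Sycp2 and Sycp3 -0.99 and -0.28. Trip13, which is not a structural member, was the gene that overlapped. Promoter windows of these genes (RefSeq on GRCm38.p6, 250 bases before to 50 after the start) were searched for CACGTG, the palindromic E-box, which reads the same on both strands. It occurred in 6 of 11 windows (54.5%), against 13.3% of the 6803 well-counted genes and 8.09% of the 27025 genes with a window. It was also frequent in lists of other direction or without calls, with 7 of 15 windows of the piRNA list, 3 of 6 of the immediate early list and 3 of 7 of the heat shock list. The matches are shown with capitals marking the E-box and the gene's own strand printed 5′ to 3′. Both called synaptonemal genes lacked it, and it stood in 11.2% of promoters of genes called lower and 15.5% of those called higher.
Sycp1 (chr3:102936159-102936224, minus strand): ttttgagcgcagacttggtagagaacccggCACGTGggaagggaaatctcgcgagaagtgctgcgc
Sycp3 (chr10:88459493-88459579, plus strand): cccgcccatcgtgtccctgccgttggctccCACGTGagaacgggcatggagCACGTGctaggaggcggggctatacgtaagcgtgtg
Syce2 (chr8:84872140-84872205, plus strand): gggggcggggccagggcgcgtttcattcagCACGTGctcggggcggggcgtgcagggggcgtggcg
Hormad1 (chr3:95559590-95559692, plus strand): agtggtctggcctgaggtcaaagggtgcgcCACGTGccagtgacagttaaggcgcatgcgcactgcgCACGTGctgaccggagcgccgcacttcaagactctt
Tex12 (chr9:50561326-50561391, minus strand): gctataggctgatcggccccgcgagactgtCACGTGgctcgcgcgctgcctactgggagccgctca
4930447C04Rik (chr12:72917901-72917966, minus strand): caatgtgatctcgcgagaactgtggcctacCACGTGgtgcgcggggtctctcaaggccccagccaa
A match of letters is a description and not evidence of binding. Sycp3 and Hormad1 each carried the box at 2 places in the window, and in all 6 genes the matches lay before the start.

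The genes of the unfolded protein and integrated stress response went to both sides, with the chaperone most abundant in WT among the lower ones. Of 17 well-counted members 2 were called lower (2.34% of all) and 0 higher, 6 lay above and 4 below, shares near the 28.0% and 28.1% of all genes, and the median of -0.14 changed sign among settings (-0.30 to 0.05). Hspa5, the main HSP70 chaperone of the endoplasmic reticulum (ENSMUSG00000026864.13, chr2:34771970-34777547), fell from 38366 and 35951 counts to 11411 and 10453, a log2 fold change of -1.43 (SE 0.14, FDR = 0.00593). Sdf2l1, a partner of that chaperone (ENSMUSG00000022769.9, chr16:17130138-17132383), fell from 3166 and 2338 to 646 and 596 (-1.81, SE 0.28, FDR = 0.0155). Hsp90b1, the HSP90 of the same compartment, had 25020 and 26096 against 13587 and 10796 (-0.73, FDR = 0.0321, under 2-fold). Calr (1975 and 1884 against 2084 and 2252), a lectin chaperone, and Creld2 (7274 and 8103 against 6388 and 3653) were not called. Among amino acid genes downstream of ATF4, Mthfd2 had 3508 and 3797 against 1530 and 1382 (-0.99), while Shmt2 had 1434 and 2020 against 2788 and 2429 (0.93). Among members too low in WT for this fit, Atf4 had 178 and 3 against 1472 and 919 counts and Ddit3, another factor of this response, 31 and 59 against 149 and 184, and the median over all 23 tested members was 0.35. Dnajc3, a co-chaperone of HSPA5 that is not in the list and was chosen after its values were seen, was also lower (5674 and 5725 against 1446 and 1165, -1.79, FDR = 0.00596). Hspa5 kept its call with each library left out, and Sdf2l1 lost its call without Prmt1-dKO replicate 1 or 2 (FDR up to 0.0631).

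The endoplasmic reticulum stress element, known as the site through which ATF6 acts with NF-Y, was searched on both strands of the same promoter windows as CCAAT followed by CCACG, with 9 bases of any kind between them. It was present in 4 of 17 list members (23.5%), against 0.250% of well-counted genes and 0.137% of all genes with a window, and in Dnajc3. It stood in 1.55% of promoters of genes called higher and 1.25% of those called lower. Windows around the matches are shown because the genes that carry it differed in their counts, with the element in capitals and the gene's own strand printed 5′ to 3′. A match on the other strand reads from CGTGG to ATTGG.
Hspa5 (chr2:34771975-34772093, plus strand): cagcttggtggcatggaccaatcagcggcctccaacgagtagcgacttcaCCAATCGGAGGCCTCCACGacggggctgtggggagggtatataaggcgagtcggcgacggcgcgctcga
Hsp90b1 (chr10:86705483-86705694, minus strand): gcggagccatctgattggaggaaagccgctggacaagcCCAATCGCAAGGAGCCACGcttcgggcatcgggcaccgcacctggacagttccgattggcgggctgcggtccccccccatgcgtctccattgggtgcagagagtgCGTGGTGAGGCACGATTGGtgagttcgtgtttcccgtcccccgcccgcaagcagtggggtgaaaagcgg
Calr (chr8:84847025-84847143, minus strand): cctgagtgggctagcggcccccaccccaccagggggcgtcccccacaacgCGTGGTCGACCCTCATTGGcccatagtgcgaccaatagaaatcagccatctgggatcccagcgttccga
Creld2 (chr15:88819470-88819588, plus strand): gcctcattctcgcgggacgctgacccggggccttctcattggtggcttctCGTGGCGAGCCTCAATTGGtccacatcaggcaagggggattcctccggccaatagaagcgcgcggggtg
Dnajc3 (chr14:118937777-118937895, plus strand): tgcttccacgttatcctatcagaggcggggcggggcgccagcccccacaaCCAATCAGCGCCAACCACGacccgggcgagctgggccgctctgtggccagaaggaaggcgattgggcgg
Of these 5 genes Hspa5 and Dnajc3 were called lower, Hsp90b1, with 2 matches, was lower by less than 2-fold, and Creld2 and Calr did not pass the test. In these 5 genes a shared element thus went with fitted log2 fold changes from -1.79 to 0.51. Outside them, 2 genes called higher carried the element as well.

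Genes of the cytosolic ribosome lay higher in Prmt1-dKO almost throughout. Of 83 well-counted genes of 84, 80 had both Prmt1-dKO libraries above both WT libraries (28.0% of all genes) and 1 below, 18 were called higher and 0 lower (1.93% and 2.34% of all), and the median log2 fold change was 0.76 (0.59 to 0.85 over 8 other settings). Rps18 had 13806 and 13210 against 26362 and 22435 counts (1.19, SE 0.14), Rpl17 5341 and 5696 against 12160 and 10403 (1.37), and Rps28 10057 and 11158 against 19217 and 16950 (1.11). In these 3 genes the replicates of a genotype lay closer to each other than to the other genotype. Rps4x, on the X chromosome (ENSMUSG00000031320.9, chrX:102184941-102189394), had the largest difference, with 1311 and 824 against 3971 and 3687 (2.18, SE 0.26), and the genes that did not separate upwards were Rpl7l1, Rps27l and Rps29 (-0.14, -0.19 and 0.19). Ribosomal protein genes have many processed pseudogenes that can share reads, so single values are uncertain. In whole testes 74 of these 83 genes were higher in all 3 Prmt1-dKO libraries (15.6% of genes there), with a median of 0.73 and 4 called higher (0.635% of genes there). Across genes, the difference in whole testes fell with transcript length (Spearman's rho -0.352, against -0.072 in sorted cells), and ribosomal protein transcripts are short. The part of length in these values was not tested. The translation factor Eef1a1, chosen after its values were seen, had 13004 and 12504 against 24739 and 23439 (1.26, FDR = 0.00638).

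Of 14 well-counted glycolysis genes, 9 lay above and 0 below (28.0% and 28.1% of all), 3 were called higher (1.93% of all), and the median was 0.79 (0.63 to 1.09). Aldoa, an aldolase, had 2972 and 2286 against 5960 and 4401 counts (1.31), Pgam1, a mutase, 3398 and 4361 against 8146 and 6402 (1.24), and Eno1, an enolase, 6754 and 5112 against 11345 and 9457 (1.15). Pkm (7332 and 5343 against 9701 and 8837) and Gapdh (13016 and 11222 against 16968 and 14182) had smaller differences of 0.89 and 0.70. Pgk1, with 1713 and 301 against 569 and 562, shows the spread of the WT pair. Of 77 nuclear genes of oxidative phosphorylation only Uqcrb was called (1626 and 1932 against 3201 and 2707, 1.07), with 26 above, near the 28.0% of all genes, and 8 below (28.1%), and Ndufv2 and Ndufa1 had -0.97 and -0.95. Mitochondrially encoded genes had 10 of 12 above (28.0% of all), a median of 0.55 and 0 calls. Aldoa lost its call without Prmt1-dKO replicate 1 (FDR = 0.0931), and Uqcrb without WT replicate 1 or a Prmt1-dKO replicate (up to 0.412). Eno1 lost it without WT replicate 2, where its fold fell below 2.

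The hnRNP and PTB families of RNA-binding proteins, some of which are known PRMT1 substrates, had 4 of 27 members called higher (1.93% of all well-counted genes) and 0 lower, with 13 above (28.0%) and 4 below (28.1%) and a median of 0.34 (0.17 to 0.41). Hnrnpa1 (ENSMUSG00000046434.16, chr15:103240432-103246692) had 2954 and 1886 against 5964 and 5336 counts (log2 fold change 1.56, SE 0.23, FDR = 0.0134). Ptbp1, a splicing repressor (ENSMUSG00000006498.16, chr10:79854427-79864771), had 2828 and 1850 against 4436 and 4127 (1.21, FDR = 0.0264), Ptbp3 410 and 487 against 1262 and 1235 (1.81), and Hnrnpa3 2160 and 1641 against 3133 and 3247 (1.09). Hnrnpa1 alone of the first 3 stayed called with any library left out, since Ptbp1 and Ptbp3 reached FDRs of 0.0750 and 0.405 without a Prmt1-dKO replicate, and Ptbp1 was also not called without WT replicate 2. Of the SR proteins, only Srsf4 was called and was lower, with 3446 and 4143 against 1569 and 1303 (-1.07, FDR = 0.0320), and it was lost without WT replicate 2 or either Prmt1-dKO replicate. Core spliceosome genes had 20 of 43 above and 2 below with 0 calls. Hnrnpa1, Ptbp1 and Srsf4 are the called genes among 17 well-counted of 20 that the study itself names for these cells, a list chosen on these samples and therefore not independent evidence.

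Of the arginine methyltransferases and their cofactors, 13 of 15 were well counted and Ddah1 was the only call, where 1.93% of all genes were called higher and 2.34% lower. Prmt5, the main enzyme of symmetric dimethylation, had 2128 and 1798 against 1784 and 1795 counts (log2 fold change 0.21, SE 0.24), and its partner Wdr77 4506 and 5776 against 4862 and 5027 (0.28). Prmt3 (1291 and 547 against 1133 and 1379), Prmt7 (3487 and 3868 against 3553 and 3239), Prmt9 (951 and 452 against 885 and 758) and Prmt6 (452 and 337 against 252 and 196) had fitted values of 0.80, 0.22, 0.57 and -0.48. Prmt6 and Carm1, at 259 and 237 against 180 and 108, were the members with lower fitted values beside Prmt1 and Jmjd6. None of these passed the test.

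Of 41 well-counted DNA replication genes Orc1, the largest subunit of the origin complex, was called (1672 and 1743 against 300 and 253 counts, -2.29, FDR = 0.0154), with 16 below and 9 above. Of all well-counted genes 2.34% were called lower, 28.1% lay below and 28.0% above. Mcm2 (6768 and 8085 against 3569 and 3255) and Lig1 had -0.79 and -0.76 at FDRs of 0.0427 and 0.0472, under 2-fold. Of mitosis genes Bub1, a spindle checkpoint kinase, was lower (4322 and 3732 against 1499 and 1594, -1.04) and Mad2l1, its checkpoint partner, higher (1260 and 967 against 2355 and 1928, 1.28). Of 21 well-counted G1 to S regulators 3 were called higher and 2 lower, where 1.93% and 2.34% of all were. Cdk4 (3038 and 2002 against 5861 and 4681, 1.40), Ccnd3 (1095 and 641 against 1823 and 1760, 1.39) and the CDK inhibitor Cdkn1c (401 and 354 against 1009 and 880, 1.66) were higher, and Ccne2 (4244 and 4430 against 1673 and 1318, -1.20) and Cdkn2d (1601 and 1585 against 513 and 386, -1.49) lower. Ccne1 and Ccnd1 were not called, with fitted values of 0.88 and -0.52. Without a Prmt1-dKO replicate Orc1, Bub1, Mad2l1, Ccne2, Cdkn2d and Cdkn1c were not called (FDR up to 0.108, 0.358, 0.458, 0.171, 0.540 and 0.582), whereas Cdk4 was. Bub1 also lost its call without WT replicate 1. In whole testes 30 of 33 mitosis genes lay below WT in all 3 Prmt1-dKO libraries, where 22.9% of all genes did. In both sorted ones 11 of 33 did, where 28.1% of all genes did.

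Among chromatin and signalling lists, Polycomb and germline-gene repressors had 3 of 33 called higher (for this and the lists that follow, 1.93% of all genes were called higher and 2.34% lower), the heterochromatin reader Cbx3 (10394 and 9232 against 16534 and 16233, 1.08), E2f6 (555 and 547 against 1396 and 1811, 1.89) and Cbx6 (137 and 116 against 306 and 410, 1.85). Lysine methylation enzymes had 0 of 29 called, with the demethylase Kdm5a at 7260 and 8598 against 3645 and 3541 (-0.80, FDR = 0.0378, under 2-fold). The DNA methylation, piRNA, apoptosis, heat shock, interferon and CENP centromere lists had 0 calls among 13, 19, 17, 12, 7 and 20 genes. Of 36 proteasome genes the germline subunit Psma8 was higher (380 and 297 against 877 and 928, 1.76), and of 11 well-counted replication-dependent histone genes Hist1h2aa was lower (1185 and 974 against 233 and 242, -1.84). Of p53 targets only Ddb2, a DNA damage sensor, was called, and it was lower (2977 and 2685 against 659 and 572, -1.86). Of the oxidative stress list Sod1 (4199 and 4565 against 8312 and 6448, 1.09) and Hmox1 (798 and 826 against 1793 and 1382, 1.30) were higher. Of retinoid genes Rbp4, a retinol carrier, was lower (2869 and 2803 against 1046 and 927, -1.19). Cbx3 and Ddb2 kept their call with each library left out, and the others here did not (FDR up to 0.122 for Sod1 and 0.639 for Hmox1). With library totals, Cdkn1c, Sod1, Hmox1, Eno1, Cbx3, Cbx6, Rps28, Uqcrb and Psma8 were not called.

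**Figure D4:**
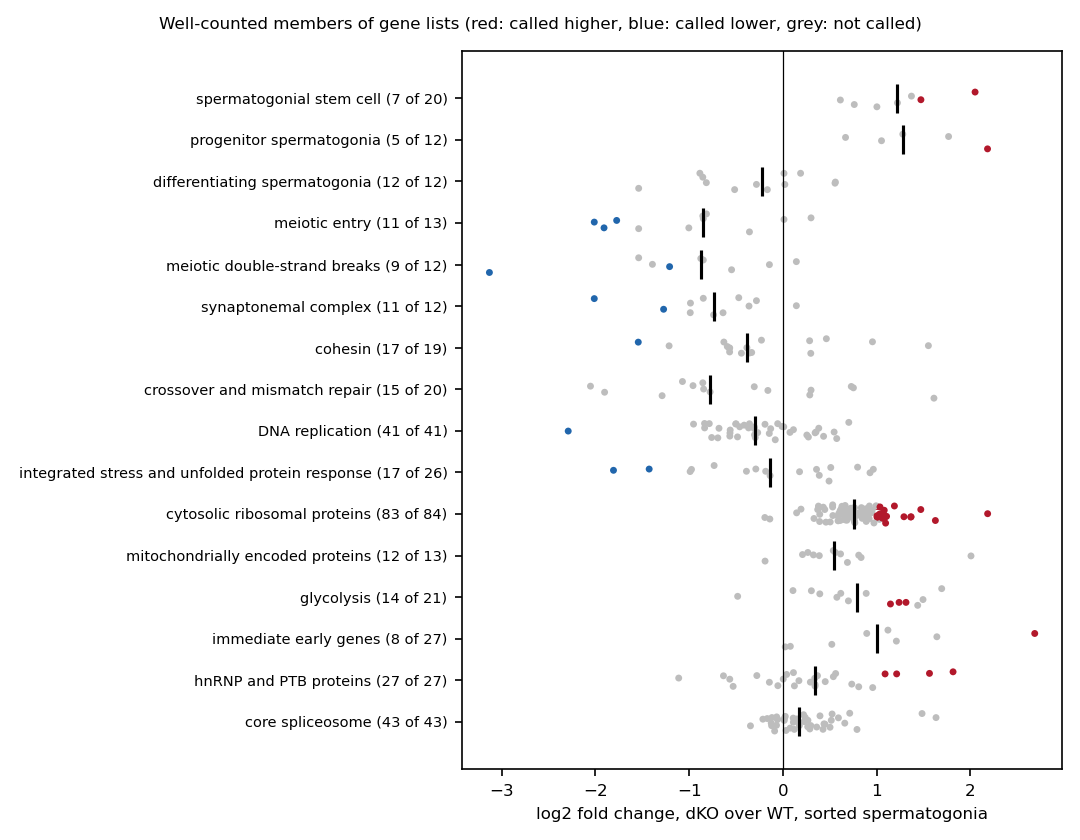
Log2 fold change (Prmt1-dKO over WT) of every well-counted member of the gene lists, 1 point per gene, coloured where called, with a black bar at each median and list sizes at the left. The stem cell and progenitor lists lie wholly right of 0 (medians 1.22 and 1.28), the synaptonemal complex lies mostly left (-0.74), and ribosomal proteins cluster near 0.76.

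Some genes had counts almost only in the sorted libraries of 1 genotype. More genes had a count in Prmt1-dKO libraries, as given above. With at least 100 counts in both libraries of a genotype and at most 10 in both of the other, 147 genes were found in Prmt1-dKO only and 15 in WT only. They were chosen by these values, so no test is given. Junb, an AP-1 subunit, had 0 and 0 counts in WT and 991 and 1299 in Prmt1-dKO, at least 851-fold higher against a floor of 3 counts over the WT pair. Ccn1 (553 and 754), Aff1 (576 and 546), Socs3 (592 and 515), a cytokine feedback inhibitor, and Bcan (467 and 573) were likewise at 0 in WT, at least 486, 417, 412 and 387-fold higher. Fosb, another AP-1 subunit, had 376 and 474. In whole testes these genes were counted in WT, at 11.4 (Junb), 36.6 (Ccn1), 65.9 (Aff1), 9.52 (Socs3), 236 (Bcan) and 1.65 (Fosb) CPM. In Prmt1-dKO testes they had 14.0, 73.9, 53.7, 14.2, 420 and 1.15 CPM. Of the 142 tested in whole testes 138 exceeded 1 CPM in WT (median 12.4), and 8 were called higher and 4 lower there, where 3.13% and 1.21% of the 14171 genes tested in both kinds of sample were. Most of them were thus detected in the WT testis.

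Immediate early genes, which cells induce within minutes of a stimulus, had mostly higher counts in Prmt1-dKO. Of 25 annotated members 20 were higher in both Prmt1-dKO libraries and 0 lower in both (29.4% and 18.5% of all genes with a count), and of 8 well-counted ones Egr1 was called higher (1.93% of all well-counted genes), with 6 above (28.0%) and a median of 1.01. Fos had 12 and 111 counts in WT and 549 and 704 in Prmt1-dKO, Jun 302 and 23 against 563 and 620, Nr4a1 386 and 15 against 1123 and 935, and Fosl2 41 and 73 against 289 and 312. Jund (2175 and 1277 against 1438 and 1333) and Klf6 (335 and 717 against 332 and 542) overlapped. Of the whole list 17 members fell under 100 counts somewhere, 13 of them in WT only. Macrophage markers also appear among the 147, with Lyz2 at 385 and 260, C1qb at 247 and 248 and Fcer1g at 127 and 242 counts in Prmt1-dKO and none in WT. Their part in the immediate early genes was not tested.

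Of the 15 genes seen in WT only, 8 are protein-coding. Meiob, a meiotic single-strand DNA binding protein, had 307 and 425 counts in WT and 3 and 6 in Prmt1-dKO, a 72.9-fold ratio (95% counting interval 38.2 to 160). Mageb3 had 183 and 223 against 0 and 0, at least 121-fold lower, and Trim61 224 and 124 against 0 and 0, at least 104-fold lower. Dmrtc1a had 364 and 173 against 4 and 0. Meiob is a recombination gene that the well-counted fit could not hold. It was chosen by these counts, so its direction is no further evidence on the meiotic genes given above. The level of Meiob in whole testes was under 1.2 CPM in all 6 libraries.

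The genes called in sorted cells were set beside whole testes, where edgeR called 54 of 8506 well-counted genes higher (0.635%) and 53 lower (0.623%), and where 15.6% lay above and 22.9% below in all 3 libraries. Of the 165 genes higher in sorted cells, 2 were higher and 3 lower there, 37 lay above and 39 below, and the median was 0.02. Of 195 lower genes tested, 1 was lower and 4 higher, 40 lay above and 39 below, and the median was -0.02. Apoe (142 ± 34.7 against 352 ± 172 CPM, SD, n = 3 each, log2 fold change 1.31) and Rpl22l1 (1.01) were higher in both kinds of sample, and Rn7sk (-1.65) was lower in both. Lars2, a gene with a stretch like ribosomal RNA, was higher in sorted cells and lower in testes (-1.87), as was CT010467.1 (-1.43). Gal3st1 was lower in sorted cells and higher in testes (1.28), as were Gm7972, Kcnq1ot1 and A530041M06Rik. The synaptonemal genes had a median of 0.35 in testes with 6 of 11 above, the reverse of their sign in sorted cells. Glycolysis genes had a median of -0.28 in testes. The assays were fitted separately, and the difference between them was not tested.

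**Figure D5:**
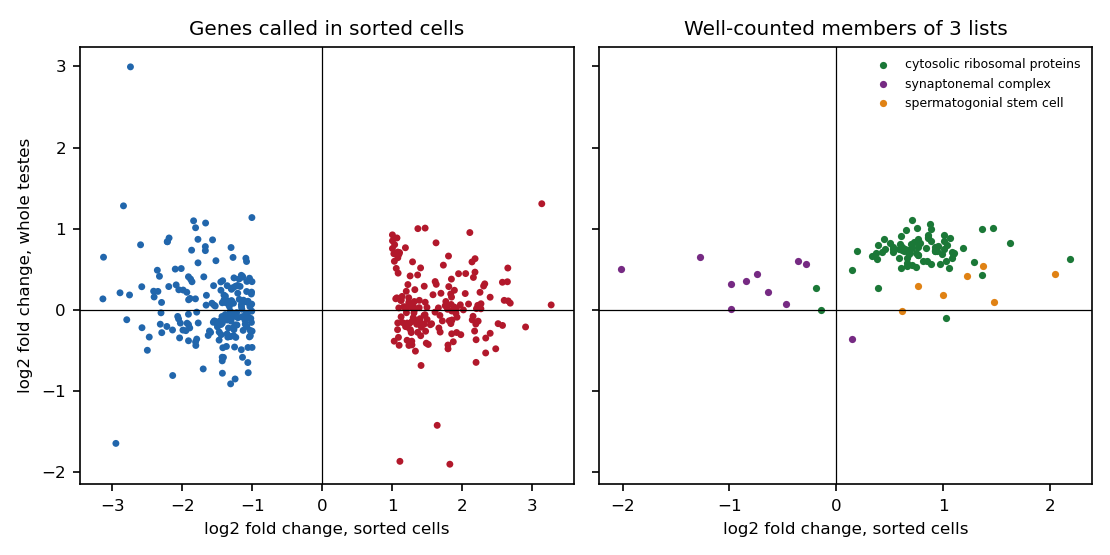
Log2 fold change in whole testes (vertical) against that in sorted cells (horizontal) for genes called in sorted cells (left, red higher, blue lower) and for members of 3 lists (right). Called genes spread around 0 on the vertical axis (medians 0.02 and -0.02), while ribosomal proteins lie mostly up and right of 0 and synaptonemal genes mostly left of 0 and above it.

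The called genes were also compared for features that the test did not use, as a description. The median longest transcript was 2728 bases for higher genes, 3524 for lower genes and 3428 for all well-counted genes, and 17.0%, 11.5% and 12.1% were under 1500 bases. Higher genes had a median WT level of 45.1 CPM and lower genes 146, against 57.7 for all, a level that the test itself uses. The X chromosome held 4.85% and 4.50% against 3.50%. At P7 the WT promoters (3000 bases around a start, a peak in at least 2 lists) carried H4R3me2a, the mark that PRMT1 places, in 24.2% of higher and 27% of lower genes against 24.9% of all. H3R2me2a was found in 15.8% and 23.0% against 16.2%, and H3K4me3 in 95.2% and 93.0% against 96.5%. H4R3me2s marked 32.1% and 37.5% against 33.3% in WT, and 15.2% and 25.5% against 16.4% in Prmt1-dKO. The shares for H4R3me2a lay near that of all genes in both directions, and no difference between these shares was tested.

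Transcript use gave a further readout, computed apart from gene totals, the mean transcript length of a gene weighted by the abundance of its isoforms. In 7722 well-counted genes with a variable length, limma called 0 longer and 0 shorter (0% in both directions, FDR below 0.05 and a ratio of at least 1.2), with a smallest FDR of 0.204, and 396 were longer and 144 shorter by that ratio at an unadjusted p below 0.05. Dennd5b had 2004 and 1815 bases in WT and 7573 and 8282 in Prmt1-dKO, and Nav1, a gene called higher, 2337 and 1797 against 6180 and 7255. Fras1 went the other way, with 15848 and 15086 against 6438 and 5486 bases. In each of these genes the genotypes were separate and the replicates close, yet no gene passed the test. Among other genes, the study examined single skipped exons of Kdm5a, Brca1 and Clk4 in browser tracks of sorted cells and by RT-PCR in testes. Mean transcript length is a different measure and does not test those exons. Kdm5a (3923 and 3714 against 3004 and 3289), Brca1 (1856 and 4349 against 3901 and 4375) and Clk4 (1377 and 1407 against 1424 and 1317) gave no call in length, and Brca1 differed mostly between the WT replicates.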

How the data were processed

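RNA of EGFP-positive cells was reverse transcribed from the poly(A) tail, amplified and sequenced by Smart-seq2. Per the labels and the study's methods, the authors trimmed reads with fastp 0.23.2, aligned them to mm10 and quantified genes with RSEM. The deposited tables give, as the authors made them with RSEM, expected counts, TPM and a transcript length weighted by isoform abundance. The deposited P7 peak lists hold MACS2 2.1.0 fold enrichment, a ratio to the background. Only peak positions were used here.

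Estimated counts were rounded to whole numbers. Gene names and coordinates came from GENCODE M21 (GRCm38), which matched 55141 of 55401 genes. Genes were tested with edgeR 4.0.16 (quasi-likelihood, TMM scaling) in R 4.3.3, with Benjamini-Hochberg adjustment (FDR) over all genes of the fit, and called at an FDR below 0.05 and at least 2-fold. All genes meant those kept by filterByExpr (minimum count 10, minimum total 15). Well-counted genes had at least 100 counts in each of the 4 libraries and were scaled, fitted and adjusted on their own. CPM are counts scaled to a common library total. CPM of single genes are TMM-scaled, and summed CPM and ratios of low genes use library totals. Ratios against 0 counts use a floor of 3 counts over the pair of libraries, and intervals are exact at 95%. Transcript lengths were tested with limma 3.58.1 on log2 length. DESeq2, which the authors also used, was run here in version 1.42.0 as an alternative, as was limma-voom. The depth of each sorted library was 15610392 to 18547103 counts. Values of whole testes came from a separate edgeR fit. The procedure was tested on simulated data.

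A gene was called above or below where both Prmt1-dKO libraries lay on one side of both WT libraries, and such counts carry no test. For the genes named, the rule was Prmt1, up to 15 coding genes per direction with the largest fold among called genes whose replicates lay within 2-fold of each other and whose genotypes did not overlap, up to 4 members of each list with the smallest p, and defining markers. Some items are not reported here. Genes outside this rule were chosen after their values were seen. The comparison, the lists and the tests were chosen with earlier results of these data known.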

Additional observations from a re-analysis of the deposited data

Results flagged for a closer look

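Of the 73 named genes called in sorted spermatogonia (for expression, or for Nav1 named by its transcript length), 16 separated the genotypes in the opposite direction in whole testes, in which every Prmt1-dKO library lay beyond every WT library, and 16 did so in the same direction. Of all well-counted genes, 15.6% lay above and 22.9% below in whole testes. The difference between the kinds of sample was not tested. Of genes higher in sorted cells, the log2 fold change in whole testes was -0.53 for Ddah1, -0.48 for Aldh2, -0.44 for Pgam1, -0.39 for Mad2l1, -0.35 for Dcaf12, -0.29 for Tfe3, -0.21 for Ptbp1 and -0.17 for Hnrnpa1. Of genes lower in sorted cells, it was 1.28 for Gal3st1, 0.80 for Spdya, 0.73 for Ddb2, 0.73 for Hsf2bp, 0.51 for Hormad2, 0.49 for BC049762, 0.30 for Ankrd31 and 0.23 for 4930432K21Rik. Among these, Gal3st1 was also called in whole testes.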

How the results depend on the processing

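The counts of calls depended on the fit, and the cause was not tested. Over all genes, edgeR's 0 higher and 0 lower became 2521 and 977 with DESeq2, 1546 and 150 with limma-voom, and 1713 and 279 with limma-voom and sample quality weights. Leaving out 1 library gave 0 to 5290 higher and 0 to 2146 lower genes, with 0 in both directions without either Prmt1-dKO replicate. No filter, another scaling and the replicate block gave 0.

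Among well-counted genes, 165 higher and 200 lower became 106 and 365 with library totals, 374 and 417 with DESeq2, 142 and 125 with limma-voom, 373 and 409 with quality weights, 61 and 61 at a minimum of 20 counts, and 0 and 0 at a mean of at least 100. Leaving out 1 library gave 41 to 1109 higher and 44 to 806 lower. A minimum of 50 counts (123 and 152) and the fit without the ribosomal RNA gene (164 and 200) were chosen after seeing the data. The replicate block gave 347 and 279, 165 and 196 of them shared, but same-numbered libraries did not deviate together (correlation -0.0181), so they share only a number. Transcript lengths gave 0 calls in every setting run. Of the genes that the rule for naming chose, 4 were called in whole testes, and this count was 1 to 6 with a library left out.

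Of 73 named genes called, 23 kept their call with every library left out in turn and 63 in the 4 other settings. Ddx4 (0.04) reversed with library totals (-0.12), and leaving out 1 library moved it between -0.19 (without WT replicate 1) and 0.33 (without WT replicate 2). Of 39 lists, 27 kept the sign of their median in every setting. Genes under 100 counts were the least certain, and WT replicate 2 had the fewest genes with a count (15587) although its total was not the lowest.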
